A study of Mus musculus with 5 samples.

Results

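The Zic genes encode transcription factors with C2H2 zinc fingers, and 4 of them, Zic1, Zic2, Zic4 and Zic5, were compared here between mouse medulloblastomas and the normal early postnatal cerebellum. Every probe set whose only gene symbol in the platform annotation was one of these 4 names was taken, which gave 8 of the 45101 probe sets on the array: 2 for Zic1, 1 for Zic2, 2 for Zic4 and 3 for Zic5. RNA from 4 mouse medulloblastomas and from 1 mouse cerebellum labelled P5, read here as postnatal day 5, had been hybridised to 5 Affymetrix arrays. The series title names Cxcr6 mutant mice, Cxcr6 being a chemokine receptor, and an inhibitor of the Hedgehog component Smoothened. For the single arrays the labels give neither genotype nor treatment, and no strain, sex or age of the tumours, so tumour and age cannot be told apart. Medulloblastomas 1 and 2 have titles that begin with ken, and medulloblastomas 3 and 4 and the cerebellum have titles that begin with hmk. Nothing says whether the tumours came from separate mice, so the p-values measure only the spread between these samples.

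Zic proteins take their name from the cerebellum, where they were found as zinc finger proteins of granule neurons. Their zinc fingers are related to those of the Gli proteins, the transcription factors through which Hedgehog signalling acts. Zic1 is made in granule neuron precursors and their progeny, the cell lineage from which Hedgehog-driven medulloblastoma arises, and it is used as a marker of that lineage. Mice that lack Zic1 have a small cerebellum with missing folia, Zic2 acts together with Zic1 in cerebellar growth, and loss of ZIC1 and ZIC4 in people has been linked to Dandy-Walker malformation. Zic2 is also known for its part in forebrain and midline development, where human mutations cause holoprosencephaly, and Zic5 for its part in neural tube closure and neural crest formation in mice. Zic genes are also active in the meninges and in some interneurons, so a whole-tissue RNA sample sums several sources.

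The genes lie in pairs, Zic1 beside Zic4 and Zic5 beside Zic2, with the members of a pair pointing away from each other. The promoter windows that RefSeq supplies for Zic1, Zic4 and Zic5 are shown so that the neighbouring start sites can be compared, and that of Gm5089, a long non-coding RNA gene next to Zic5, because its readings, given with the neighbouring genes, stood far from those of Zic5. Zic2 is named only. Each window runs from 250 bases before the transcription start to 50 bases after it, is read 5′ to 3′ on the strand of its gene (build GRCm38.p6), and has GC boxes (GGGCGG or CCGCCC) in capitals.

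Zic1 (chr9:91365719-91366018, minus strand): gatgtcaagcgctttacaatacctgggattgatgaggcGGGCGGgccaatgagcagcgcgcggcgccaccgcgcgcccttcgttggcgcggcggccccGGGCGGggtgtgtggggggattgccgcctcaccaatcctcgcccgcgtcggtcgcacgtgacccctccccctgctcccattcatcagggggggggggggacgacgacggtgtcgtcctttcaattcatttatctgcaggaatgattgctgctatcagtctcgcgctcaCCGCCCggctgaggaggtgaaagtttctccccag

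Zic4 (chr9:91368722-91369021, plus strand): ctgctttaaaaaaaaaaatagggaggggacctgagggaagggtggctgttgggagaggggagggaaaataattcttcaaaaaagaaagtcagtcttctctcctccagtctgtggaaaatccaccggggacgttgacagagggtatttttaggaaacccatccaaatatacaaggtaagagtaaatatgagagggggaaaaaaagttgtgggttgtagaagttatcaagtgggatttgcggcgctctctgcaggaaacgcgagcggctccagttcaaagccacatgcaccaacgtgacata

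Zic5 (chr14:122465609-122465908, minus strand): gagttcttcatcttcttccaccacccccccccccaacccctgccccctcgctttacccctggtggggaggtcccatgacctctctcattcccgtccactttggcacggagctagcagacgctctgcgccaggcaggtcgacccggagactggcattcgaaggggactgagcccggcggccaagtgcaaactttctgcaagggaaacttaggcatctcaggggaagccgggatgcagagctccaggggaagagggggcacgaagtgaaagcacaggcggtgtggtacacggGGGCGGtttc

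Gm5089 (chr14:122451097-122451396, minus strand): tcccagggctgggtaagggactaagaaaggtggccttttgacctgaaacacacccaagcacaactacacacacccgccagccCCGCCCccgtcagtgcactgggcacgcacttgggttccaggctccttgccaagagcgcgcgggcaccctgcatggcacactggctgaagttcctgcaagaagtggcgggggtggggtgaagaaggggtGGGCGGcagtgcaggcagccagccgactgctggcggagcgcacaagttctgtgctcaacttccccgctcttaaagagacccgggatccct

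The Zic1 window held 3 GC boxes, the Gm5089 window 2, the Zic5 window 1 and the Zic4 window 0. Of 32544 promoter windows of this length, 35.9% held at least 1. GC content was 65.3% for Zic1, 62.7% for Zic5, 63.0% for Gm5089 and 46.0% for Zic4, beside a median of 53.0% over all windows. The other motifs searched, on both strands, were GACCACCCA or TGGGTGGTC, the Gli site (0.246% of all windows), CAGCAGG or CCTGCTG, a Zic site (10.5%), the E-box CAGCTG (16.4%) and CATCTG or CAGATG, the E-box that Atoh1 prefers (17.1%). None of these letters occurred in the 4 windows shown, which is a description of these windows only.

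With arrays scaled to a trimmed mean of 500, Zic1 read somewhat lower in each tumour than in the cerebellum, by less than the test could call. Its brighter probe set, 1423477_at, read 21638, 17410, 18489 and 16486 in medulloblastomas 1 to 4, against 24337 in P5 cerebellum; these are signals on a linear scale, as deposited by the authors after scaling each array to a trimmed mean of 500. All 4 tumours lay below the cerebellum, medulloblastoma 1 the least so. The mean of the tumours was 18506 ± 2243 (SD, n = 4), and the log2 difference from the cerebellum was -0.40 ± 0.21 (SE; limma, adjusted p = 0.395 over 14109 genes). As a fold this is 0.757, with a 95% interval of 0.542 to 1.06, so under this scaling the interval left out a 2-fold difference in either direction. The second Zic1 probe set, 1439627_at, read 8464, 9292, 7727 and 8907 in the tumours, against 10246 in P5 cerebellum. It again had every tumour below the cerebellum, but a different tumour, medulloblastoma 2, lay nearest to it, and its log2 difference was -0.26 ± 0.20 (limma, adjusted p = 0.614 over 31416 probe sets). The mean Zic1 difference depended on the scaling in size but not in direction. It was -0.71 ± 0.18 after quantile normalization and -0.21 ± 0.24 under scaling to equal medians. Relative to the array medians, however, neither Zic1 probe set kept every tumour below the cerebellum.

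Zic4, the neighbour of Zic1, likewise showed no difference past the threshold. Probe set 1456417_at read 1431, 1712, 1681 and 1374 in medulloblastomas 1 to 4, against 1758 in P5 cerebellum. The log2 difference of -0.18 ± 0.25 missed the threshold (SE; limma, adjusted p = 0.743). Medulloblastomas 2 and 3 were close to the cerebellum and medulloblastomas 1 and 4 lower. The 95% interval of the fold was 0.594 to 1.30, around 0.880, which also left out a 2-fold difference. With equal medians the sign of this difference turned, to 0.0072. Probe set 1421539_at read 761, 630, 707 and 650 in the tumours, against 886 in P5 cerebellum, and here medulloblastoma 2 was the lowest tumour. Its log2 difference was -0.36 ± 0.29 (limma, adjusted p = 0.618 over all probe sets).

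Zic2, which has 1 probe set, was the member that differed most between tumours. Probe set 1421301_at read 390, 380, 555 and 644 in medulloblastomas 1 to 4, against 573 in P5 cerebellum. Both tumours with titles beginning with ken lay under the cerebellum, while the hmk tumours stood on either side of it. Taken over all 4 tumours, Zic2 differed by -0.24 ± 0.37 on the log2 scale (SE; limma, adjusted p = 0.781), a fold of 0.847 with a 95% interval of 0.470 to 1.52 that a 2-fold decrease falls inside. With the ken tumours alone against the cerebellum the difference was -0.54 ± 0.35, and within the hmk arrays its sign turned, at 0.06 ± 0.31; neither was called. Of the 8 Zic probe sets this was the only one whose ken and hmk tumours did not overlap, which 44.1% of all 31416 probe sets also showed. Prefix and tumour cannot be told apart, because each tumour has 1 prefix and nothing states what the prefix stands for.

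Zic5 gave different readings at its 3 probe sets. The brightest, 1456140_at, was the steadiest of all Zic probe sets: it read 2206, 2232, 2214 and 2466 in medulloblastomas 1 to 4, against 2173 in P5 cerebellum. The first 3 tumours lay close to the cerebellum and medulloblastoma 4 a little above, and the gene differed by 0.07 ± 0.22 on the log2 scale (SE; adjusted p = 0.904 in limma), which turned to -0.014 after quantile normalization. The 95% interval of its fold was 0.741 to 1.48. Probe set 1456219_at read 1144, 1497, 1861 and 1484 in the tumours, against 1931 in P5 cerebellum (-0.38 ± 0.31). Every tumour was below the cerebellum there, medulloblastoma 1 furthest and medulloblastoma 3 only just. Probe set 1425666_at read 630, 727, 629 and 640 in the tumours, against 460 in P5 cerebellum (0.48 ± 0.29), with every tumour above the cerebellum. Within the same arrays, the log2 difference at 1456219_at minus that at 1425666_at was between -1.17 and -0.48 in the 4 tumours. Neither probe set passed the threshold (limma, adjusted p = 0.616 and 0.510 over all probe sets), the parts of Zic5 that they cover were not known here, and no direction is given for the gene.

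**Figure D1:**
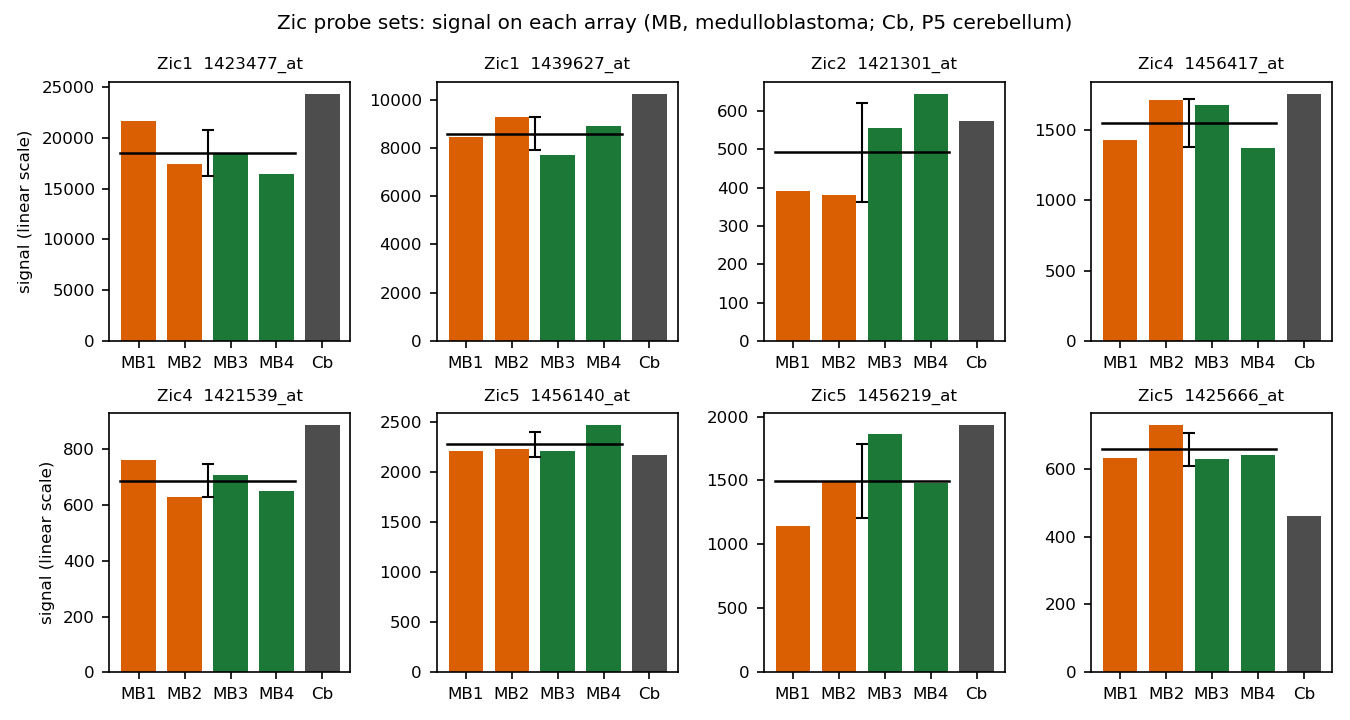
Signal (linear scale) of each of the 8 Zic probe sets on the 5 arrays, with medulloblastomas 1 to 4 (MB1 and MB2 with ken titles in orange, MB3 and MB4 with hmk titles in green) left of the P5 cerebellum (Cb, grey). The black line and bar give the mean and SD of the 4 tumours; for Zic2 the ken tumours (390 and 380) stand below the hmk tumours (555 and 644) and the cerebellum (573).

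With the trimmed mean scaling, most Zic probe sets read lower in every tumour, without a call. In 5 of 8 Zic probe sets all 4 tumours were below the cerebellum, in 2 all 4 were above it, and in 1 the cerebellum lay between tumours. Over all 31416 probe sets tested, 28.6% had all 4 tumours below and 24.5% all 4 above. The lower count depends on the scaling, since array medians were 191 to 213 in the tumours and 232 in the cerebellum. Relative to these medians, only 1421539_at of the 5 kept every tumour below the cerebellum. At an adjusted p under 0.05, 0 of 8 probe sets and 0 of 4 genes were called (limma), and 0 of 8 and 0 of 4 also had an unadjusted p under 0.05. The background is low: 0.21% of all probe sets and 0.489% of all genes were called in either direction. A difference that was not called is not thereby shown to be absent, and the intervals give the sizes that remain possible. With the trimmed mean scaling, 3 of the 4 genes had a 95% interval inside 2-fold in both directions, and 4 of the 8 probe sets did. After quantile normalization the interval of Zic1 no longer left out a 2-fold decrease.

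**Figure D2:**
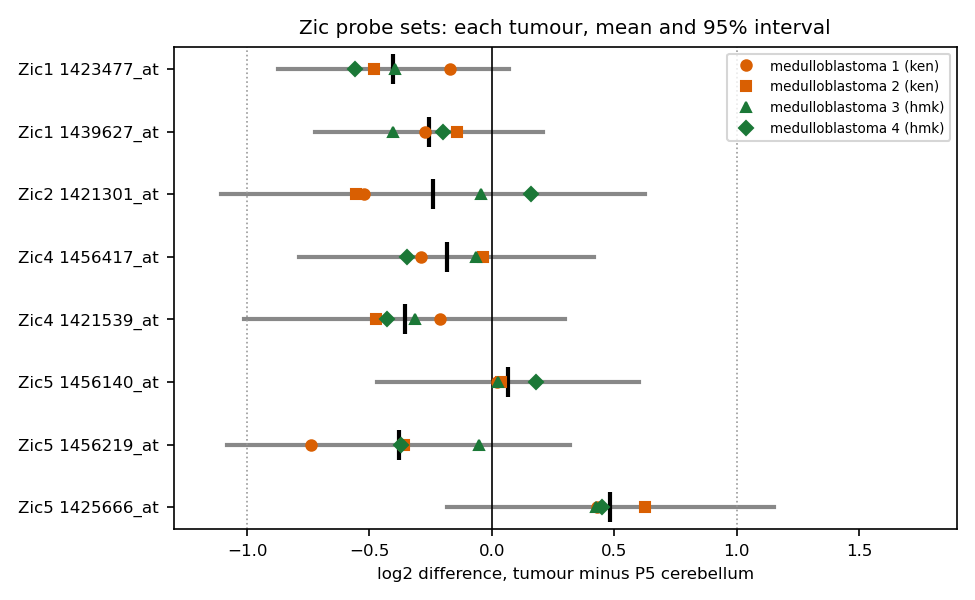
Log2 difference of each tumour from the P5 cerebellum for the 8 Zic probe sets (symbols, coloured by title prefix), with the mean over tumours (black tick) and its 95% interval from limma (grey line). Dotted lines mark 2-fold; every mean lies between -0.40 and 0.48, all 8 intervals include 0, and the signs of 1456417_at and 1456140_at turn under equal medians and quantile normalization.

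Set among all 14109 genes, the Zic genes lay in the bulk of the differences from the cerebellum, and Zic1, Zic4 and Zic5 had a smaller spread among tumours than the median gene. The median absolute log2 difference over all genes was 0.41. A larger absolute difference was found in 50.6% of genes than for Zic1, in 68.4% than for Zic2, in 75.3% than for Zic4 and in 91% than for Zic5. The SD among the 4 tumours on the log2 scale was 0.17 for Zic1, 0.35 for Zic2, 0.16 for Zic4 and 0.08 for Zic5, beside a median of 0.31 over all genes. For Zic5 97.6% of genes had a larger SD, for Zic4 84.9%, for Zic1 82.2% and for Zic2 42.7%. Each gene was taken by its brightest probe set, and genes were not matched for signal. At Zic5 probe set 1456219_at the SD was 0.28, and 63.8% of all probe sets had a larger one. At 1425666_at these were 0.10 and 96.5%. These shares describe the 5 arrays and test nothing.

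**Figure D3:**
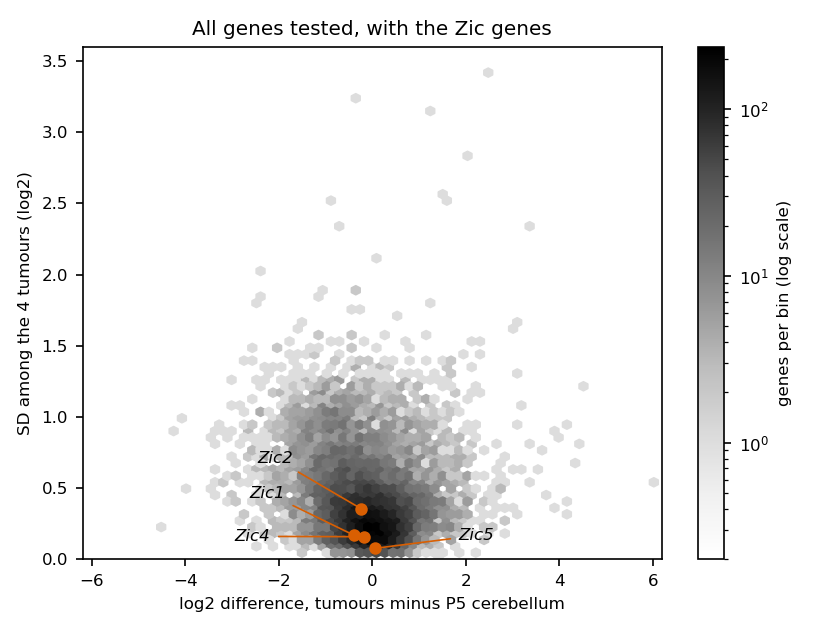
Each of the 14109 genes tested, by its log2 difference of tumours from P5 cerebellum (x axis) and its SD among the 4 tumours on the log2 scale (y axis); darker bins hold more genes, on a log scale. The Zic genes (orange) lie near 0 on the x axis, Zic2 highest at an SD of 0.35 and Zic5 lowest at 0.08. The small Zic4 difference changes sign under equal medians, that of Zic5 after quantile normalization and that of Zic2 within the hmk arrays.

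Several transcription factors of the same lineage differed from the cerebellum by far more than the Zic genes, which were not set against them in a test. A list of 22 factors of the rhombic lip, the germinal zone of granule neurons, and of the granule lineage had 19 members that could be tested, of which 3 were called higher and 0 lower (limma), against 0.312% and 0.177% of all genes. The median log2 difference of the list was 0.45, against -0.07 over all genes. The 3 called genes were Lhx2, a LIM homeobox gene, Olig3, which marks rhombic lip progenitors, and Atoh1, which sets the granule neuron fate. Atoh1 read 4178, 7341, 9505 and 7872 in the tumours, against 963 in P5 cerebellum, and Olig3 read 1318, 2448, 2030 and 2709, against 119. Every tumour was far above the cerebellum for both. Their log2 differences were 2.81 ± 0.40 and 3.79 ± 0.39, and that of Lhx2, whose cerebellum signal of 13.8 lies under the constant of 32 added before taking logs, was 3.90 ± 0.38 (adjusted p = 0.0336 for Atoh1 and 0.0197 for the others). Without medulloblastoma 2 or 4 none of the 3 was called, with adjusted p-values between 0.0670 and 0.138, and without medulloblastoma 3 Atoh1 was not (0.0678). En1, a homeobox gene of the midbrain and hindbrain, had the fourth largest difference of the list but dim tumour signals of 29.4, 48.3, 1.47 and 121, against 389 (-2.57 ± 0.95, adjusted p = 0.272). With the trimmed mean scaling, only 4 of the 19 factors lay within 0.40 of the cerebellum on the log2 scale. This is the distance of the furthest Zic gene, Zic1, and 50.6% of all genes lay further. The Zic1 difference was -0.71 after quantile normalization, and the factors were not counted there.

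**Figure D4:**
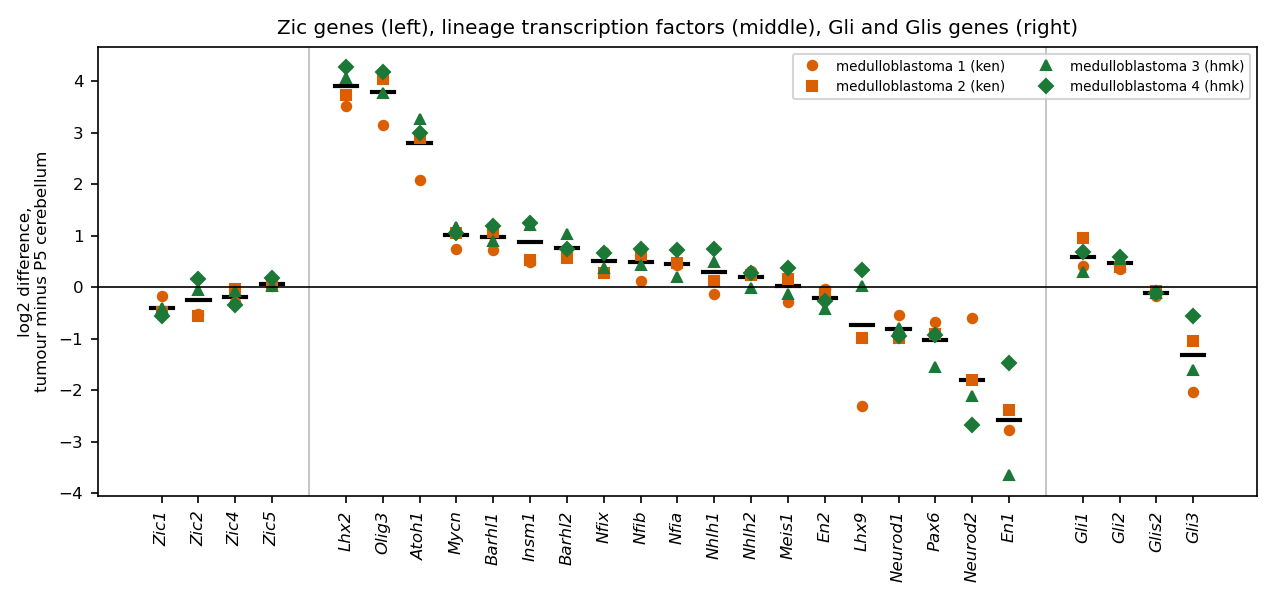
Log2 difference of each tumour from the P5 cerebellum (symbols) and mean over tumours (black bars) for the 4 Zic genes, 19 transcription factors of the rhombic lip and granule lineage, and 4 Gli and Glis genes. The Zic means run between -0.40 and 0.07, those of the lineage factors between -2.57 and 3.90; with equal medians Zic4 and Glis2 and after quantile normalization Zic5 change sign.

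The Gli and Glis genes, whose zinc fingers are related to those of Zic proteins, were not called either. Of 6 listed, 4 could be tested and 0 were called, with a median log2 difference of 0.18. Gli1, a Hedgehog target and activator, read 2012, 2962, 1872 and 2436 in the tumours, against 1510 in P5 cerebellum (0.59 ± 0.29, limma, adjusted p = 0.381). Gli2, the main activator of Hedgehog targets, read 1443, 1471, 1657 and 1697, against 1116 (0.47 ± 0.24, adjusted p = 0.382). Both had every tumour above the cerebellum, whereas Gli3, largely a repressor of the pathway, had every tumour below it, at 95.7, 219, 139 and 323, against 488 (-1.31 ± 0.58, adjusted p = 0.340). A second Gli3 probe set also lay lower (-1.60), and another, dim one lay higher (1.23). Glis2, a zinc finger factor studied mostly in the kidney, differed by -0.11 ± 0.25, with 0.08 under equal medians.

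Genes that have been reported to respond to Zic factors or to bind them, in mice or other vertebrates, were described as a further list of 12. Of these 10 could be tested, and 1 was called higher and 0 lower, against 0.312% and 0.177% of all genes. The median log2 difference was 0.85, against -0.07 over all genes. Atoh1, which Zic1 has been found to repress in the chick neural tube, was the called gene, the same call as in the lineage list. Ccnd1, the cyclin D1 gene, reported to be reduced in the cerebellum of Zic1 mutant mice, read 23239, 8391, 9962 and 8033 in the tumours, against 2407 in P5 cerebellum. All tumours exceeded the cerebellum and medulloblastoma 1 stood well above the rest (2.20 ± 0.52, limma, adjusted p = 0.125). With each tumour left out in turn, the Ccnd1 difference lay between 1.85, without medulloblastoma 1, and 2.36, without medulloblastoma 4. Ephb1, a guidance receptor that Zic2 controls in retinal ganglion cells, read 778, 326, 279 and 384, against 1044. Again medulloblastoma 1 stood apart, here nearest to the cerebellum, and the difference was -1.29 ± 0.50 (limma, adjusted p = 0.291), or -1.58 without that tumour. Mdfic, a relative of the gene for I-mfa, a protein that binds Zic factors, read 447, 644, 670 and 696, against 279, with every tumour above the cerebellum. Its difference was 1.04 ± 0.33 (limma, adjusted p = 0.233), or 1.18 without medulloblastoma 1. Ccnd1, Ephb1 and Mdfic passed the threshold only without medulloblastoma 1 and within the hmk arrays. In those fits far more genes in total passed than in the main fit. Mdfi, the gene for I-mfa itself, was named after its values were seen and went the other way. It read 245, 255, 65.1 and 82.3 in the tumours, against 281 (-0.86 ± 0.72, limma, adjusted p = 0.591). Of the 10 genes tested, 6 were above the cerebellum in every tumour and 3 below it, beside 25.1% and 30.8% of all genes. Activity of Zic proteins was not measured, and these genes respond to many other factors.

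Around the Zic genes, the largest difference among the neighbours tested belonged to Gm5089, the long non-coding RNA gene next to Zic5 in RefSeq order. Its 1 probe set, 1438132_at, read 88.4, 109, 357 and 350 in medulloblastomas 1 to 4, against 2248 in P5 cerebellum. All 4 tumours were far below the cerebellum, the ken tumours furthest. The log2 difference was -3.35 ± 0.70 and missed the threshold (limma, adjusted p = 0.102 over all genes). It was called without medulloblastoma 1, at -3.05, within the hmk arrays, at -2.56, and with the ken tumours against the cerebellum, at -4.13. Without medulloblastoma 1 and within the hmk arrays, far more genes in total passed than in the main fit. The fits of 1 prefix take their spread from 1 pair of tumours. A second long non-coding RNA gene, 2610035F20Rik, lies between Zic5 and Zic2 and was named after its values were seen. It read 143, 82.0, 89.3 and 122 in the tumours, against 204 in P5 cerebellum, so every tumour was below (-0.76 ± 0.56, adjusted p = 0.537). Zic5 and Zic2 themselves differed by 0.07 and -0.24, and the sign of the first turns after quantile normalization and that of the second within the hmk arrays.

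The remaining neighbours with a named probe set were protein-coding genes and 1 further long non-coding RNA gene, and none was called. On the far side of Gm5089, Clybl, which encodes a mitochondrial lyase, differed by -0.27 ± 0.37 and Tm9sf2, a transmembrane protein gene, by 0.34 ± 0.21. Beyond Zic2, Pcca, a subunit of propionyl-CoA carboxylase, differed by -0.49 ± 0.33, Ggact by 0.67 ± 0.48 and 4930594M22Rik by 0.06 ± 0.61. Beside the Zic1 and Zic4 pair, Tbc1d2b differed by 0.89 ± 0.32, Ctsh, the cathepsin H gene, by 0.92 ± 0.35 and Adamts7, a metalloprotease gene, by -1.22 ± 0.92, on the side of Zic1. On the side of Zic4, Plscr1, a phospholipid scramblase gene, differed by 1.11 ± 0.38 at a probe set of the kind that can bind related transcripts, with 0.64 and -0.16 at its other probe sets. Plscr2 and 1700057G04Rik were too dim to test, with mean signals of 27.6 and 44.3. With the trimmed mean scaling, Tbc1d2b, Ctsh and Plscr1 were higher than the cerebellum in every tumour, whereas Zic1 and Zic4 were lower in every tumour. Under equal medians the Zic4 mean was 0.0072. The Tbc1d2b difference was 1.04 without medulloblastoma 1, and within the hmk arrays Ctsh was at 1.19 and Plscr1 at 1.34. Tbc1d2b passed the threshold in both of these fits, and Ctsh and Plscr1 only within the hmk arrays. In both fits far more genes in total passed than in the main fit.

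**Figure D5:**
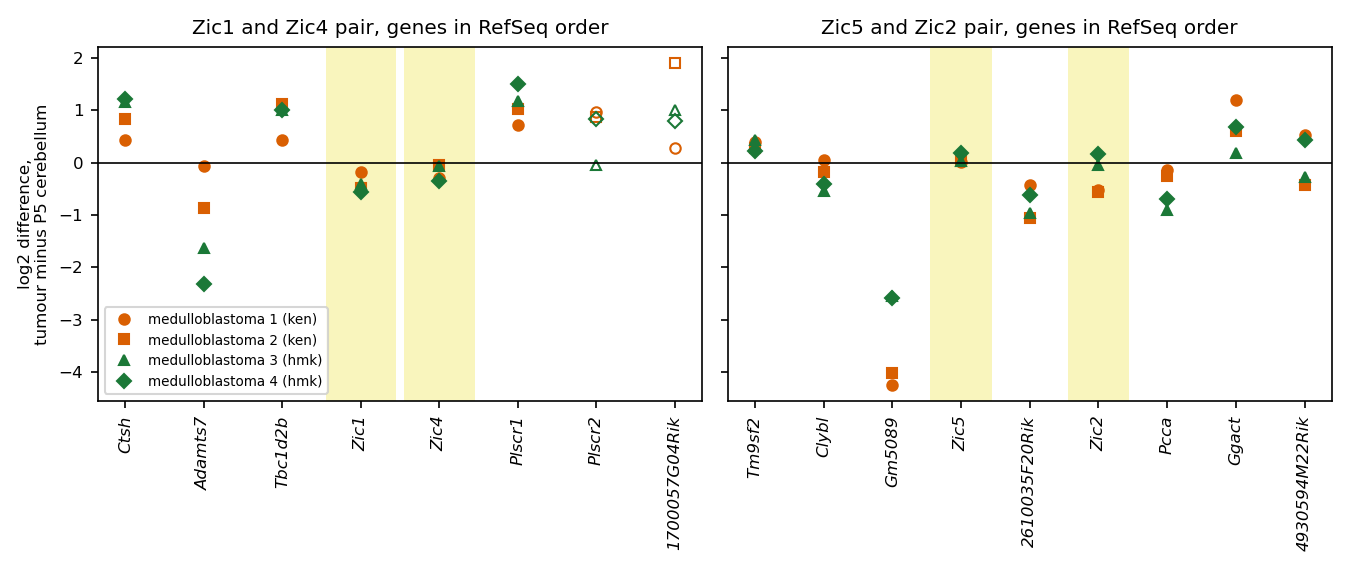
Log2 difference of each tumour from the P5 cerebellum for the Zic genes (shaded) and the nearest genes with a named probe set, in RefSeq order from left to right; open symbols are genes too dim to test. Gm5089 stands at -4.24 to -2.55 in the 4 tumours beside Zic5, whose 4 values lie between 0.02 and 0.18 and whose mean turns negative after quantile normalization.

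Markers of the meninges and of inhibitory interneurons, cell types that also make Zic RNA, read mostly lower in the tumours, and in whole-tissue RNA fewer cells of a type and less RNA per cell cannot be told apart. The signals of 14 meningeal and fibroblast markers, all with a probe set, summed to between 9716 and 17110 in the tumours, against 36650 in P5 cerebellum. Ptgds alone made up between 4528 and 11105 of these sums in the tumours, and 21928 in P5 cerebellum. Of the 14 markers, 8 were lower in every tumour, as were 30.8% of all genes (median log2 difference -1.0, 0 called higher and 1 lower). The 11 measured of 12 markers of inhibitory interneurons summed to between 4799 and 7456, against 11920, with 9 lower in every tumour (median -1.84, 0 called higher and 1 lower). Markers of granule neuron precursors, 14 of 14 measured, summed to between 50300 and 61190, against 38490, with 9 higher in every tumour, as were 25.1% of all genes, and 3 lower (median 0.67, 1 called higher and 0 lower). Those of maturing and mature granule neurons, 13 of 14 measured, ranged from 22670 in medulloblastoma 3 to 59160 in medulloblastoma 1, against 33720 in P5 cerebellum (median 0.14, 1 called higher and 0 lower). No marker of these lists was listed at 0, and the part of any of these cell types in the Zic signals was not tested. The other lists had medians of -0.87 for Purkinje cells (7 tested, 0 called), -1.45 for astrocytes and Bergmann glia (10 tested, 2 called lower), 1.60 for microglia and macrophages (10 tested, 4 called higher) and 0.27 for the oligodendrocyte lineage (7 tested, 0 called). Beside the calls in all these marker lists, 0.312% of all genes were called higher and 0.177% lower. The lowest signal of any granule neuron precursor marker on the 5 arrays was 134, at Eya1 in medulloblastoma 2, where the array median was 206. Every probe set has a signal, so this does not check the labelled tissue.

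As libraries, the tumours were closer to each other (Pearson r between 0.881 and 0.936 across 14109 genes) than to the cerebellum (0.832 to 0.880); genes are no independent replicates. Ratios of 3' to 5' signal lay within 1.21 and 1.45 for actin and within 0.731 and 0.946 for Gapdh, and medulloblastoma 1 had the highest of both. In all, 44 genes were called higher and 25 lower. The fit takes its spread from the tumours alone and assumes that the cerebellum would vary like them. With 4 arrays against 1, the smallest p of an exact permutation test is 0.2 (one-sided).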

How the data were processed

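Signal intensities of 45101 probe sets, 64 of them controls, were taken as deposited by the authors for 5 arrays. Per the submitters' processing notes the intensities were made with MAS5, except for medulloblastoma 3, for which no tool is stated. The trimmed mean (2% removed at each end) was 500.002 on every array. Groups follow the tissue named in the labels, and replicate numbers follow the order of the records and pair nothing.

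The platform annotation gave 1 gene symbol for 34945 probe sets; 34741 were matched by Entrez gene ID to RefSeq (GRCm38.p6), which was used for names, gene order and promoter windows. Each array was brought to a trimmed mean of 500, and log2(signal + 32) was taken, which understates changes of dim genes. Tumours were compared with the cerebellum in limma 3.58.1 (R 4.3.3; lmFit and eBayes with a variance trend), with Benjamini-Hochberg adjustment and a threshold of 0.05. The fit was made over 14109 genes averaging 100 or more over the arrays, each by its brightest probe set, and again over 31416 probe sets. All 4 Zic genes and all 8 Zic probe sets passed that filter. Intervals are 95% intervals of the moderated fit. The number of arrays limits the precision.

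The members, the lists and the naming rule were chosen with earlier results of these data known. Named were the members, the called and the 4 furthest genes of each of 3 lists, the 3 nearest genes with a named probe set on each side of a Zic pair, and the 3 genes nearest to each member in pattern. Marker lists of 8 cell types were described by counts. The fit was tested on simulated data. Alternatives were other scalings, constants, filters, choices of probe set and variance model, the arrays of each title prefix, and each tumour left out.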

Additional observations from a re-analysis of the deposited data

Results flagged for a closer look

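In 3 of 42 groups of 4 tumours examined, 8 of them Zic probe sets, 1 tumour lay far from the other 3 relative to the range of all 4; chance alone gives this in about 1 of 20 groups. At Zic5 probe set 1456140_at it was medulloblastoma 4, at 2466, and at Zic5 probe set 1425666_at it was medulloblastoma 2, at 727. At Ccnd1 it was medulloblastoma 1, at 23239. The other 3 tumours, in order of their numbers, read 2206, 2232 and 2214 at the first Zic5 probe set and 630, 629 and 640 at the second.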

How the results depend on the processing

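None of the 4 Zic genes was called under any of 15 alternatives, and none of the 8 Zic probe sets under any of 13. The Zic1 difference ranged from -0.71 to -0.21, with adjusted p-values between 0.0519 (hmk arrays alone) and 0.709. Zic2 ranged from -0.54 to 0.06 and was reversed within the hmk arrays (0.058). Zic4 ranged from -0.27 to 0.0072, its value with equal medians, and Zic5 from -0.014, its value after quantile normalization, to 0.26. Equal medians moved the median difference of all genes to 0.12, against -0.07 with the trimmed mean; relative to that median Zic4 was at -0.11 and -0.12. Other reversals were Glis2 (0.076, equal medians), P4hb (-0.061, quantile), Tcte2 (0.089, hmk arrays), Smurf1 (0.037), Ikbkg (0.26) and Gnl3l (-0.13), the last 3 with all probe sets averaged; 4930594M22Rik ranged from -0.088 to 0.23 with each tumour left out.

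The number of genes called, 69, was 26 without a filter, 28 with probe sets averaged, 0 without a variance trend (2007 at an unadjusted p under 0.05), 1678 within the hmk arrays, 37 with the ken tumours, and from 0 (1702 unadjusted) to 831 with each tumour left out. For probe sets, 66 were called, with 14, 0 (3775 unadjusted), 2517, 0 (2944 unadjusted) and from 0 (3201 unadjusted) to 1245 under the same settings, in that order, averaging left out. Their cause was not tested, beyond that fits of 1 prefix take their spread from 1 pair of tumours. The extremes came without medulloblastoma 4 and without medulloblastoma 1. No paired analysis was possible because there is 1 cerebellum.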

Other observations

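The genes whose 5 values were most like those of each Zic gene were found by the root mean square difference of mean-centred log2 signals over the 5 arrays, which is a description with no test. For Zic1 they were Agpat1 (0.025), Smurf1 (0.027) and Slc25a38 (0.029), and 123 genes lay within 0.1. For Zic4 they were Nme1 (0.012), Polr2d (0.032) and Uck1 (0.035), with 170 genes within 0.1. The nearest to Zic5 were Gnl3l (0.025), Pdzd8 (0.026) and P4hb (0.028), with 328 within 0.1. Each gene was taken by its brightest probe set, and others could differ. Another Nme1 probe set read 1002, 1519, 1788 and 3045 in medulloblastomas 1 to 4, against 2586 in P5 cerebellum. Other probe sets differed from the cerebellum by -0.30 for Agpat1, 0.42 for Smurf1 (a dim one) and -0.30 for Gnl3l. Those of Pdzd8 lay at 0.47, -0.40 and 0.09. Zic2 had fewer near patterns, with 29 genes within 0.1, the nearest being Ikbkg (0.045), Tcte2 (0.049) and 6330415B21Rik (0.049). Ikbkg read 403, 391, 574 and 694 in medulloblastomas 1 to 4, against 642 in P5 cerebellum, and shares with Zic2 the lower ken tumours, but its other probe sets differed by up to 1.59 from the cerebellum. Zic1 and Zic4, the members of a pair, were 0.209 apart, and 12.6% of genes were nearer to Zic1 than Zic4 was. Zic2 and Zic5 were 0.265 apart, and 11% of genes were nearer to Zic2 than Zic5 was. Members from different pairs could be nearer: Zic4 and Zic5 were the nearest of all, at 0.194, and Zic1 and Zic5 were at 0.258.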
